A study of Mus musculus with 24 samples.

Results

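Total RNA of bone-marrow-derived macrophages was compared between the cultures that the labels place in batch 2 and those they place in batch 1, across all genes outside chromosomes X and Y. The comparison used 8 of the 24 libraries of the series, all of them total RNA: KO1, WT1, WT2 and WT3 of batch 1, and KO2, KO3, KO4 and WT4 of batch 2. Cultures are named as their sample labels give them. The deposited files of KO1 carry the number KO3 in their names, which the labels give to a culture of batch 2. Every value that rests on KO1 thus takes its identity and its batch from the labels. WT stands for wild-type C57BL/6J and KO for Apobec1-/- on C57BL/6J, lacking the cytidine deaminase that edits RNA, from mice aged 6 to 12 weeks, littermates or matched by age. Marrow cells of both genotypes were grown for 7 days in M-CSF (20 ng/mL), the growth factor that drives marrow precursors to macrophages, and the labels name no further treatment. TruSeq libraries of total RNA and of ribosome footprints were made from the same cultures. The labels give the batch as a number and do not say whether it marks the culture, the extraction or the sequencing run. Nor do they say whether cultures of a group came from different mice, so the p-values below rest on a spread between samples that could be technical. Batch was fitted with genotype in the model. Because WT4 is the only WT culture of batch 2 and KO1 the only KO culture of batch 1, the difference without WT4 is that of KO2 to KO4 from KO1, and the difference without KO1 is that of WT4 from WT1 to WT3. Below, the cultures without which a call was lost are given for the called genes described.

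The targeted gene was examined first. Apobec1 RNA (mm10 chromosome 6, 122577792 to 122603024) was at 471, 415, 432 and 1156 CPM (gene counts scaled to a common library size, with TMM factors) in WT1, WT2, WT3 and KO1, and at 356, 1176, 1009 and 1276 CPM in WT4, KO2, KO3 and KO4. It was thus higher in the KO libraries, and its footprints (15 counts in KO1 and 7 to 22 in the KO libraries of batch 2, against 19 to 353 in the WT libraries) were lower in CPM in every KO library than in any WT library. The batch term of Apobec1 was not called (log2 -0.15, adjusted p = 0.381), although the WT libraries fitted alone gave a lower level in batch 2 (log2 -0.31, adjusted p = 0.0215). All values below list batch 1 as WT1, WT2, WT3 and KO1, and batch 2 as WT4, KO2, KO3 and KO4, in this order.

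Macrophages differentiated in M-CSF keep a common identity set by the M-CSF receptor and by lineage transcription factors, but their state varies with signals in the dish. Toll-like receptor and NF-kB signalling raise cytokines and acute-phase proteins, interferons raise antiviral genes, and loss of membrane cholesterol frees SREBP2 to raise the enzymes of sterol synthesis. Marrow cultures also start from progenitors shared with monocytes and neutrophils, whose granule genes are normally silent in mature macrophages. Resident-type macrophages, by contrast, express lectins, scavenger receptors and the iron exporter ferroportin.

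The cultures of both batches had macrophage RNA. For comparison with the calls below, 13.1% of all tested genes were called higher in batch 2 and 10.5% lower. Of 20 tested macrophage markers, 5 were called higher and 1 lower, and without WT4 2 higher. The 20 markers summed to 37503 to 45638 CPM in batch 1 and 45174 to 67909 CPM in batch 2. Lysozyme, Lyz2, was at 12758, 16252, 15814 and 15993 CPM in batch 1 and 34526, 17156, 21725 and 16251 CPM in batch 2, the highest value being that of WT4. The M-CSF receptor Csf1r was at 2799, 2690, 2825 and 3166 CPM in batch 1 and at 4080, 4228, 3688 and 4158 CPM in batch 2, and the groups did not overlap (log2 0.45, SE 0.11, adjusted p = 0.0145). The erythroid markers Hba-a1, Hba-a2 and Hbb-b1 and the lymphocyte markers Cd3g, Nkg7 and Gzma had 0 counts in all 8 libraries. Hba-a1 and Hba-a2 are near-identical copies whose reads may not be assigned, so their 0 counts do not show that globin RNA was absent. The 15 lymphocyte markers in the files summed to 6.73 to 7.99 CPM in batch 1 and 8.50 to 11.5 CPM in batch 2. The 12 erythroid and megakaryocyte markers summed to 29.6 to 35.5 CPM in batch 1 and 25.3 to 41.3 CPM in batch 2. The call of Lyz2 was lost without any of WT4, WT1, WT2, WT3 and KO3 (adjusted p = 0.0687 to 0.551). The call of Csf1r was lost without WT4 (adjusted p = 0.123).

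Of 22296 genes outside X and Y, 11071 had enough counts to be tested, and 2613 of them (23.6%) were called at an adjusted p of 0.05. In batch 2, 1453 genes (13.1%) were called higher and 1160 (10.5%) lower, with a median log2 fold change over all tested genes of -0.002. A difference of at least 2-fold was reached by 314 genes called higher (2.84%) and 149 called lower (1.35%). The 4 libraries of one batch all lay above the 4 of the other for 3672 genes (33.2%), among them 2393 of the 2613 called genes. The first principal component, with 50.6% of the variance, separated the batches, while the second (21.3%) set WT4 apart from KO2 and KO4. Correlations of log2 CPM ran from 0.956 to 0.993 within a batch and from 0.924 to 0.968 between batches, across genes, which are not independent replicates.

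**Figure D1:**
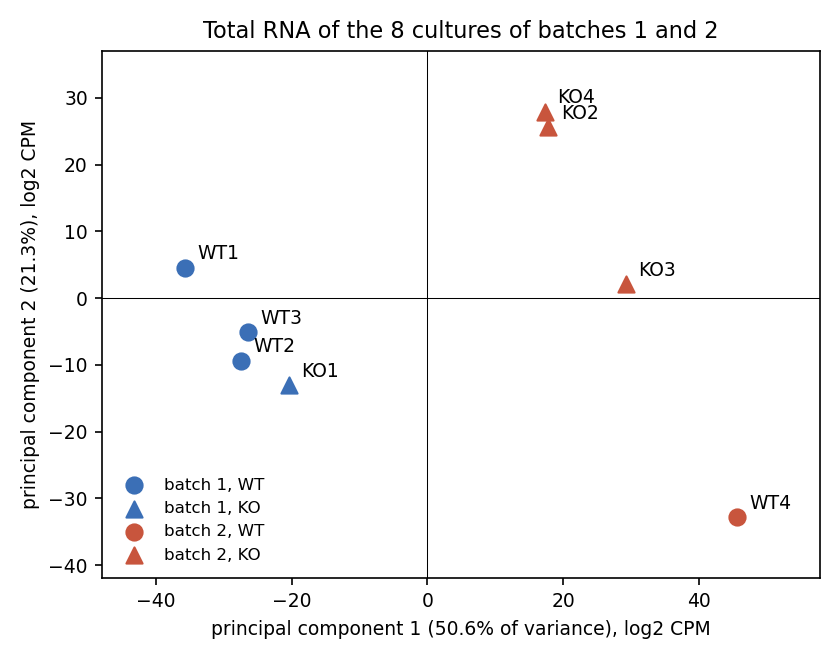
Principal components of log2 CPM (x axis, component 1 with 50.6% of the variance; y axis, component 2 with 21.3%) for the 8 total RNA libraries, coloured by batch with circles for WT and triangles for KO. The 4 libraries of batch 1 lie at negative values of component 1 and the 4 of batch 2 at positive values, and WT4 lies lowest on component 2.

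The libraries themselves differed beside these genes. Counts in genes ran from 7743450 to 12059361 per library in batch 1 and from 5077478 to 7440108 in batch 2. Uniquely aligned reads that fell in no gene made up 14.5% to 16.8% in batch 1 and 21.5% to 26.6% in batch 2 (exact two-sided permutation p = 0.0286, the smallest that 4 against 4 allows, and 0.0714 adjusted over 5 library measures). WT1 detected 17763 genes against 14851 to 15639 in the other libraries of batch 1, and KO3 lay apart from KO2 and KO4 on the second component. Without WT4, 1250 genes were called, and 982 of the 2613 calls kept their call and direction. Without KO1, 3158 genes were called and 1889 calls were kept, and 713 genes (426 higher, 287 lower) were called with the same direction in both of these fits. The part of these library differences in the results below was not tested beyond such counts. With WT1 and KO3 left out together, a setting chosen after seeing the data, 1985 genes were called.

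**Figure D2:**
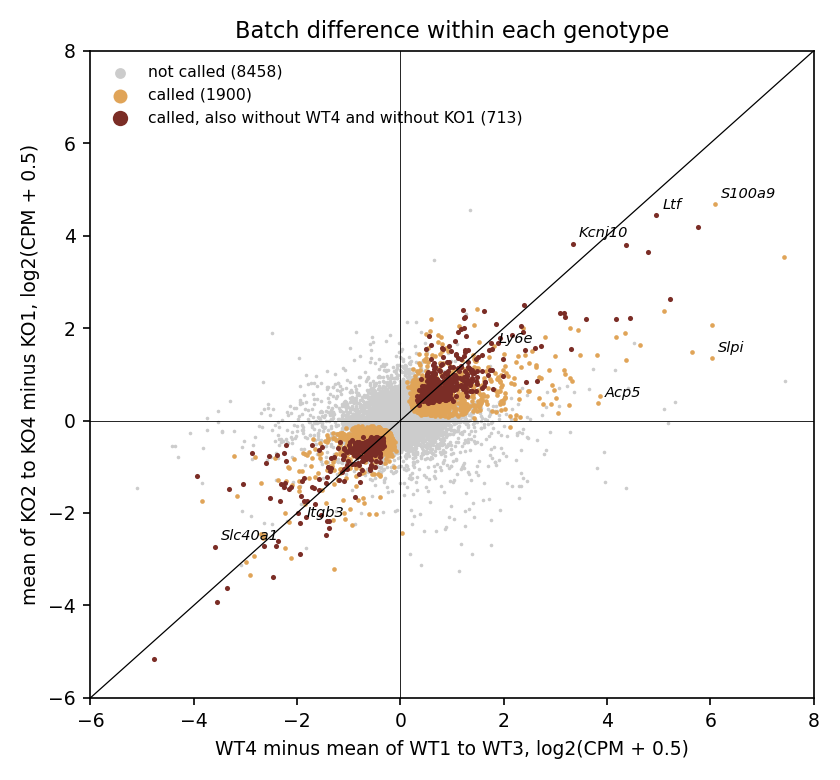
Difference between batches within each genotype for the 11071 tested genes. The x axis is WT4 minus the mean of WT1 to WT3, and the y axis the mean of KO2 to KO4 minus KO1. Both are in log2(CPM + 0.5), with the line of equal difference. Genes were called in these same libraries with a batch term shared by both genotypes, so the call favours an equal sign. Of the 2613 called genes 2611 have the same sign in both genotypes, the 713 dark points were also called without WT4 and without KO1, and Acp5 and Slpi lie far to the right of the line.

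The promoters of interferon-stimulated and sterol genes are shown here because both groups were higher in batch 2 and each is known for a short promoter element. The sequences come from RefSeq (GRCm38.p6, the same build as mm10) and run from 250 bases before to 50 after the gene start. Of the 63 tested interferon-stimulated genes, 49 had a promoter entry. Of these, 32 (65.3%) held GAAANNGAA, the core of the interferon-stimulated response element, on either strand. It was held by 8.89% of the 8809 tested genes with an entry and by 8.56% of all 32851 single promoters. The element was present in 12 of the 22 members called higher that had an entry and in 19 of the 26 not called. The promoters of Isg15, with 3 matches that overlap each other, and Oas3, with 2, are printed with every match in capitals, the first beginning at -78 and -75 from the start. Of the 17 sterol genes with an entry, Hmgcs1 was the single member with TCACNCCAC, the sterol element as searched on both strands. That element was held by 1.42% of the tested genes with an entry and by 1.24% of all promoters. The printed Hmgcs1 match begins at -137. These 3 genes were picked after their values were seen, among called members that hold the element. A match describes letters in this window and shows no binding.
Isg15 promoter, chr4:156200769-156201068, minus strand: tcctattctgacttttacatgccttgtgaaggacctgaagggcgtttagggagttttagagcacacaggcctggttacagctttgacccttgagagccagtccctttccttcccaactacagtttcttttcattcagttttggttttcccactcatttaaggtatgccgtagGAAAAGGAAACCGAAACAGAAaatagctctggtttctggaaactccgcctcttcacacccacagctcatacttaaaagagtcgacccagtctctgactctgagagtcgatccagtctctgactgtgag
Oas3 promoter, chr5:120777610-120777909, minus strand: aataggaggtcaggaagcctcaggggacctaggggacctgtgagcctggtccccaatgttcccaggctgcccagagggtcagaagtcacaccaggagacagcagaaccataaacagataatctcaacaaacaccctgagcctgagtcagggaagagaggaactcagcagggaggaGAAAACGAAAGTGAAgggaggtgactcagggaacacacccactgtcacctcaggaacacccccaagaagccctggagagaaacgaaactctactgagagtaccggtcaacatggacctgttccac
Hmgcs1 promoter, chr13:119690101-119690400, plus strand: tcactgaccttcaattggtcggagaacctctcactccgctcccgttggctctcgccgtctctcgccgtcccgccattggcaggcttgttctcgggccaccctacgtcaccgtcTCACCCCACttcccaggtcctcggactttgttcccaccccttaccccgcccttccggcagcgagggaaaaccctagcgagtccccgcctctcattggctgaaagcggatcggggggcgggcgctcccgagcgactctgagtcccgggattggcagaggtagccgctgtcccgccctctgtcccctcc

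Granule genes of neutrophils and their precursors had the largest median difference of the lists. Of 17 counted markers of this lineage, 12 had enough counts to be tested, and 4 of the 17 had 0 counts throughout batch 1. Of the 12, 9 were called higher in batch 2 and 0 lower, against 13.1% of all tested genes called higher. The median log2 was 5.11. Members near 0 in batch 1 could pass the count filter only through batch 2, which favours a high share and median in this list. The S100a8 and S100a9 proteins form calprotectin, an antimicrobial complex of neutrophils and monocytes. S100a8 was at 0.985, 1.19, 0.169 and 0.396 CPM in batch 1 and 63.8, 11.2, 15.3 and 23.1 CPM in batch 2, and S100a9 (chromosome 3, 90692630 to 90695721) at 0.0821, 1.55, 0.254 and 0.528 and 65.3, 16.1, 26.4 and 40.9 CPM. All 4 libraries of batch 2 lay above all of batch 1, 75.5-fold higher for S100a8 (log2 6.24, SE 0.44, adjusted p = 2.65e-04) and 101-fold higher for S100a9 (log2 6.65, SE 0.64, adjusted p = 0.00118), where batch 1 holds 27 and 21 counts in all. Lactoferrin, Ltf, an iron-binding protein of secondary granules, had 3, 1, 1 and 1 counts in batch 1 and 119, 75, 69 and 91 in batch 2 (log2 6.79, SE 0.38, adjusted p = 4.06e-05). Ngp, neutrophilic granule protein, had 0 counts in batch 1 and 176 in batch 2, at least 94.6-fold higher against a floor of 3 counts over the batch. Lipocalin 2 (Lcn2), which binds bacterial iron carriers, was at 0, 0.596, 0.254 and 1.06 CPM and 48.5, 3.19, 12.3 and 5.26 CPM, with WT4 highest. The collagenase Mmp8 was at 2.95 to 5.55 CPM in batch 1, at 226 CPM in WT4 and at 11.1 to 28.3 CPM in KO2 to KO4. The G-CSF receptor Csf3r was 2.102-fold higher, at 41.7 to 49.8 against 71.6 to 117 CPM. Without WT4, 5 of the 12 markers were called higher, with a median log2 of 2.19, and without KO1, 11, with a median of 5.66. The calls of S100a9, Lcn2 and Mmp8 were lost without WT4 (adjusted p = 0.0505, 0.1501 and 0.115), and the call of Mmp8 was lost without WT3 (adjusted p = 0.0633).

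Markers of blood monocytes differed in the same direction. Of 14 tested, 8 were higher in batch 2 and 0 lower (median log2 1.62), against 13.1% and 10.5% of all tested genes. Members near 0 in batch 1 entered this test through batch 2 as well, with the same limit. Ly6c2, the surface antigen of inflammatory monocytes, was at 0.0821, 0.358, 0.169 and 0.264 CPM in batch 1 and 6.25, 1.11, 3.64 and 3.85 CPM in batch 2, and its neighbour Ly6c1, a near-identical copy whose reads may be split, at 6.89 to 14.8 and 24.0 to 29.2 CPM. Versican, Vcan, a matrix proteoglycan made by monocytes, was near 1.79 to 2.03 CPM in batch 1 and at 80.6, 7.90, 42.0 and 5.47 CPM in batch 2, so that WT4 and KO3 were high and KO2 and KO4 less so (log2 4.85, SE 0.91, adjusted p = 0.0155). Ms4a4c, a tetraspan membrane protein, rose evenly, from 22.4, 32.4, 25.7 and 32.2 CPM to 63.6, 103, 90.0 and 90.1 CPM (2.63-fold higher). Cd177, a neutrophil surface protein that the list holds, was at 0.0821 to 0.528 CPM and 1.21 to 7.07 CPM. Chi3l3, a secreted chitinase-like protein counted among alternative activation genes, was at 0, 0.834, 0.169 and 0.528 CPM and 20.7, 8.73, 11.1 and 19.8 CPM (log2 5.69, SE 0.64, adjusted p = 0.00118). The summed level of all 16 monocyte markers in the files was 604 to 621 CPM in batch 1 and 1042 to 1258 CPM in batch 2, and that of the 17 neutrophil markers 65.1 to 79.4 and 165 to 618 CPM. In bulk RNA, more cells of a type and more RNA per cell cannot be told apart. Without WT4, 3 monocyte markers were called higher, with a median log2 of 1.14. The calls of Ly6c2, Vcan and Cd177 were lost without WT4 (adjusted p = 0.0740, 0.299 and 0.347), and the call of Vcan was lost without WT3 (adjusted p = 0.0518).

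**Figure D3:**
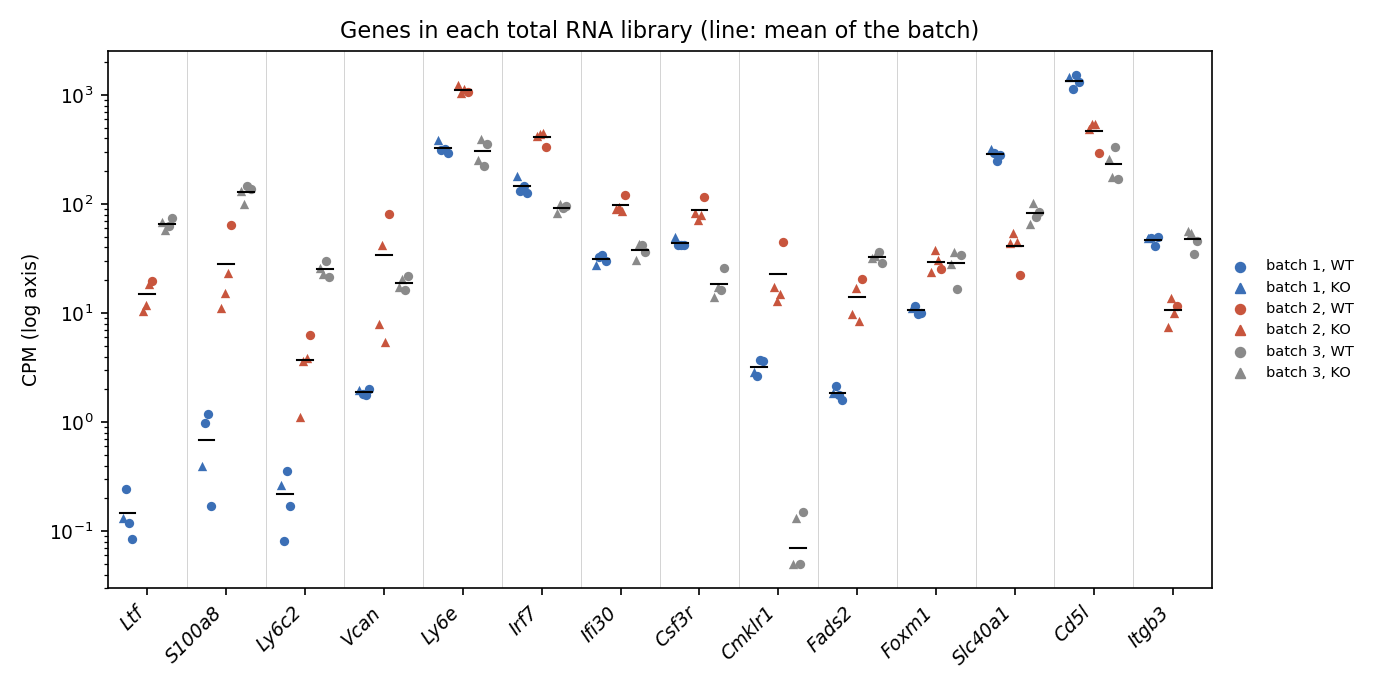
CPM (log axis) of 14 genes in each total RNA library, with circles for WT, triangles for KO and a line at the mean of the batch; libraries with 0 counts are drawn at 0.05. Batch 2 (red) lies above batch 1 (blue) for the first 11 genes, from Ltf to Foxm1, and below it for Slc40a1, Cd5l and Itgb3; batch 3 (grey) is shown for its level only.

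Several inflammatory genes were higher in batch 2, with their highest level in WT4. Slpi, a secreted protease inhibitor, was at 0.246, 1.55, 1.02 and 1.45 CPM in batch 1 and 86.0, 2.91, 16.8 and 1.62 CPM in batch 2. Complement factor B (Cfb), of the alternative pathway, was at 0.985, 8.82, 4.74 and 7.13 and 104, 22.3, 43.9 and 12.8 CPM, and the cytokine feedback inhibitor Socs3 at 2.30, 6.79, 3.98 and 5.55 and 92.4, 16.8, 18.6 and 9.92 CPM. In each of these, WT4 was more than 2-fold above the next library. Mefv, which encodes the inflammasome sensor pyrin, was more even within batch 2, at 2.05 to 5.13 against 14.9 to 34.2 CPM (log2 2.98, SE 0.31, adjusted p = 7.74e-04). The acute-phase protein Saa3 spanned 0.903, 47.6, 17.6 and 61.8 CPM and 1873, 101, 680.4 and 19.8 CPM and was not called (log2 4.32, SE 1.75, adjusted p = 0.135). Among 39 tested NF-kB cytokine and feedback genes, 16 were called higher and 0 lower, against 13.1% and 10.5% of all tested genes. Their median log2 was 0.77. Small and even differences came from members of the NF-kB list. The inhibitor Nfkbib was 2.18-fold higher, the subunit Rela 1.44-fold higher, the ubiquitin ligase Birc3 1.52-fold higher and the actin-linked Marcksl1 1.92-fold higher. Without WT4, 8 of the 39 were called higher, and without KO1, 14 higher and 3 lower. The call of Cfb was lost without any of WT4, WT2, WT3 and KO3 (adjusted p = 0.0611 to 0.401). The calls of Slpi and Socs3 were lost without WT4 (adjusted p = 0.438 and 0.153), and the calls of Slpi and Socs3 were lost without WT3 (adjusted p = 0.0641 and 0.0549).

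Fewer chemokine genes were called. Among 25 chemokines and their receptors, 6 were called higher and 0 lower, against 13.1% higher among all tested genes. The T-cell chemoattractant Ccl5 was at 1.72, 1.79, 0.932 and 3.70 CPM in batch 1 and 9.87, 13.3, 14.2 and 6.48 CPM in batch 2, and the neutrophil chemoattractant Cxcl1 at 0.410 to 0.715 and 2.47 to 9.71 CPM. The membrane-bound chemokine Cxcl16 was 1.38-fold higher and the C5a receptor C5ar1 1.49-fold higher, whereas the C3a receptor C3ar1, the member with the highest CPM, was not called (log2 0.34, SE 0.14, adjusted p = 0.107). Cmklr1, the receptor of the chemoattractant chemerin, stands outside the list and had a larger difference, from 2.63, 3.70, 3.64 and 2.90 CPM to 45.2, 17.5, 13.01 and 14.98 CPM (log2 3.32, SE 0.26, adjusted p = 2.07e-04). The immediate early phosphatase Dusp1, which limits MAP kinase signalling, was 2.37-fold higher, and the mRNA decay factor Zfp36 1.95-fold higher, while the stress factor Atf3 was 1.55-fold lower. Of 27 immediate early genes, 9 were called higher and 2 lower, and without WT4 2 higher and 1 lower. Without KO1, 2 chemokine genes were called higher and 1 lower. The calls of Ccl5 and Atf3 were lost without WT4 (adjusted p = 0.0549 and 0.102), and the calls of Cxcl1, Cxcl16, C5ar1 and Zfp36 were lost without KO1 (adjusted p = 0.0679, 0.0757, 0.0557 and 0.0676).

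Antiviral genes were called higher more often than lower in batch 2. Of 63 tested interferon-stimulated genes, 27 were called higher and 1, the Schlafen gene Slfn8, lower, against 13.1% and 10.5% of all tested genes, and the median log2 was 0.35. Ly6e (chromosome 15, 74955025 to 74959904), a membrane protein that limits virus entry, was at 312, 319.8, 293 and 389 CPM in batch 1 and 1056, 1240, 1049 and 1130 CPM in batch 2, 3.17-fold higher (log2 1.66, SE 0.10, adjusted p = 4.92e-05). Irf7, the transcription factor that amplifies interferon production, was at 131, 145, 127 and 181 CPM and 335, 421, 443 and 447 CPM (2.45-fold higher). In both genes KO1 was the highest of batch 1 and still below every library of batch 2. The exonuclease Isg20 was at 5.00 to 6.47 and 19.3 to 29.3 CPM and the oligoadenylate synthetase-like Oasl1, one of a family of related copies, at 16.2 to 20.6 and 44.1 to 61.7 CPM. Isg15, the ubiquitin-like modifier whose promoter is printed above, was at 44.9, 48.4, 45.1 and 51.6 CPM and 115, 93.5, 114 and 81.4 CPM (2.16-fold higher), and Oas3 at 278, 284, 284 and 353 and 432, 511, 479.6 and 488 CPM (1.46-fold higher). The RNA-binding Znfx1, the member with the highest mean CPM, was 1.31-fold higher (612 to 710.1 against 823 to 982 CPM). Without WT4, 17 members were called higher and 0 lower, and without KO1, 26 and 1. The call of Znfx1 was lost without WT4 (adjusted p = 0.0532).

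Genes of antigen presentation followed in part. Of 16 MHC class II genes, 6 were called higher and 0 lower, against 13.1% and 10.5% of all tested genes. Ifi30, the lysosomal thiol reductase that prepares antigens, was at 32.6, 34.2, 30.3 and 27.7 CPM in batch 1 and 121, 90.3, 94.5 and 86.3 CPM in batch 2, 3.50-fold higher (log2 1.81, SE 0.09, adjusted p = 2.24e-05). Ciita, the master transcriptional activator of class II genes, was at 15.3, 10.6, 9.15 and 9.90 CPM and 31.4, 53.5, 27.1 and 55.9 CPM, and the peptide loading chains H2-DMa and H2-DMb1 were 2.04-fold higher and 1.70-fold higher. The invariant chain protease Ctss, the class II member with the highest CPM, was not called (log2 -0.19, SE 0.12, adjusted p = 0.263). In class I, 4 of 21 genes were called higher and 1 lower, among them the light chain B2m (1.30-fold higher) and the peptide loading factor Tapbp, at 369 to 419 against 633 to 663 CPM. Without KO1, 3 class II genes were called higher, and without WT4, 3 class II genes. Class I genes called higher numbered 1 without WT2, WT3 or WT4, and 2 without WT1 or KO4. The call of B2m was lost without any of WT4, WT1, WT2, WT3 and KO4 (adjusted p = 0.0551 to 0.377). The call of Ciita was lost without WT4 (adjusted p = 0.0571), and the call of Ciita was lost without KO1 (adjusted p = 0.0740).

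Receptors through which macrophages read cytokines and antibodies were called higher more often than lower. Among all tested genes, 13.1% were called higher and 10.5% lower. Of 20 receptors of colony-stimulating factors and other cytokines, 9 were called higher and 1, the TGF-beta receptor Tgfbr1, lower. The interleukin 6 receptor Il6ra was at 59.98, 50.5, 60.2 and 66.2 CPM in batch 1 and 115, 127, 103 and 129 CPM in batch 2 (1.91-fold higher), and the interleukin 3 receptor Il3ra at 21.5, 21.3, 21.1 and 19.1 and 36.5, 40.2, 36.9 and 45.8 CPM (1.90-fold higher). The common beta chain Csf2rb was 1.61-fold higher and the interferon gamma receptor chain Ifngr2 1.58-fold higher. Of 13 Fc receptor genes, 6 were called higher: the common gamma chain Fcer1g was at 221, 235, 236 and 290.5 CPM and 572, 529, 514 and 483 CPM (2.08-fold higher), the high-affinity receptor Fcgr1 was 1.65-fold higher, and the inhibitory receptor Fcgr2b was at 99.0 CPM in WT4 against 29.2 to 41.6 CPM in KO2 to KO4 and 23.1 to 24.6 CPM in batch 1. Of 23 Toll-like receptors and nucleic acid sensors, 9 were called higher and 1 lower, such as Tlr1 (1.43-fold higher), the adaptor Myd88 (1.36-fold higher) and the chaperone Unc93b1 (1.46-fold higher). Without WT4, 6 cytokine receptors, 1 Fc receptor gene and 0 Toll-like receptors and sensors were called higher. Without WT1, WT2, WT3 or KO2, 5, 3, 4 and 5 Toll-like receptors and sensors were. Purine and metabolite receptors and transporters had 10 of 26 called higher and 1 lower, among them the UDP receptors P2ry6 (2.08-fold higher) and P2ry14 (2.17-fold higher), with 5 higher without WT4 and 6 without WT2. The call of Myd88 was lost without any of WT4, WT2 and WT3 (adjusted p = 0.0538 to 0.367). The call of Unc93b1 was lost without any of WT4, WT1, WT2, WT3, KO2 and KO4 (adjusted p = 0.0579 to 0.332). The calls of Fcgr1, Fcgr2b and Tlr1 were lost without WT4 (adjusted p = 0.164, 0.0914 and 0.173).

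After the granule genes, sterol synthesis and uptake had the largest share called higher among lists with at least 10 tested members. Of its 25 tested genes, 18 were called higher and 0 lower, against 13.1% and 10.5% of all tested genes. Their median log2 was 1.16. SREBP2 itself, Srebf2, was at 43.7, 37.8, 42.0 and 41.9 CPM in batch 1 and 101, 79.5, 96.6 and 79.0 CPM in batch 2, 2.24-fold higher (log2 1.16, SE 0.11, adjusted p = 3.40e-04). The fatty acid desaturases Fads2 and Fads1, which the list holds, were 9.11-fold higher (1.61 to 2.13 against 8.50 to 20.6 CPM) and 1.55-fold higher, and mevalonate kinase Mvk was 2.198-fold higher. Squalene epoxidase Sqle was at 16.3, 20.5, 17.7 and 15.1 CPM and 71.5, 24.2, 48.0 and 23.5 CPM, and the synthase Hmgcs1 at 44.0, 45.3, 45.6 and 37.8 and 100.3, 48.6, 84.3 and 39.7 CPM. In these, WT4 was highest and KO3 next, while KO2 and KO4 were nearer to batch 1; Sqle, Hmgcs1, Isg15 and Oas3 were picked after their values were seen. Without WT4, 3 sterol genes were called higher, with a median log2 of 0.74, without WT1, WT2 or WT3, 12, 11 and 11, and without KO1, 20. The call of Hmgcs1 was lost without any of WT4, KO1, WT1, WT2 and WT3 (adjusted p = 0.0596 to 0.383). The calls of Mvk and Sqle were lost without WT4 (adjusted p = 0.0517 and 0.172).

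Of 22 fatty acid synthesis genes, 9 were called higher and 1 lower, against 13.1% and 10.5% of all tested genes. ATP-citrate lyase Acly, which supplies their substrate, was not called (log2 0.27, SE 0.10, adjusted p = 0.0676). Stearoyl-CoA desaturase Scd1, which makes monounsaturated fatty acids, was at 1.56, 0.477, 0.847 and 0.528 CPM in batch 1 and 24.7, 3.88, 5.03 and 1.42 CPM in batch 2, so that WT4 was far above the others and KO4 just below WT1. Fatty acid synthase Fasn was 1.62-fold higher and its regulator SREBP1, Srebf1, 1.46-fold higher, at 69.3 to 75.3 CPM in batch 1 and 99.4 to 107 CPM in batch 2. The HDL receptor Scarb1 was at 58.0, 54.0, 55.6 and 58.4 CPM and 137, 101, 111 and 106 CPM (2.11-fold higher). Apolipoprotein E (Apoe), a lipid carrier and the LXR target with the highest CPM, was at 1602, 1797, 1771 and 1650 CPM and 3415, 5036, 1329 and 5375 CPM, with KO3 below batch 1 and the other libraries of batch 2 above it, and was not called (log2 1.12, SE 0.49, adjusted p = 0.145). Of 19 LXR targets, 4 were called higher and 2 lower. Acid lipase Lipa, which frees cholesterol in lysosomes, was 1.57-fold lower (2514 to 2683 against 1358 to 2155 CPM). Without WT4, 3 fatty acid synthesis genes were called higher. The calls of Scd1 and Lipa were lost without WT4 (adjusted p = 0.0869 and 0.152).

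**Figure D4:**
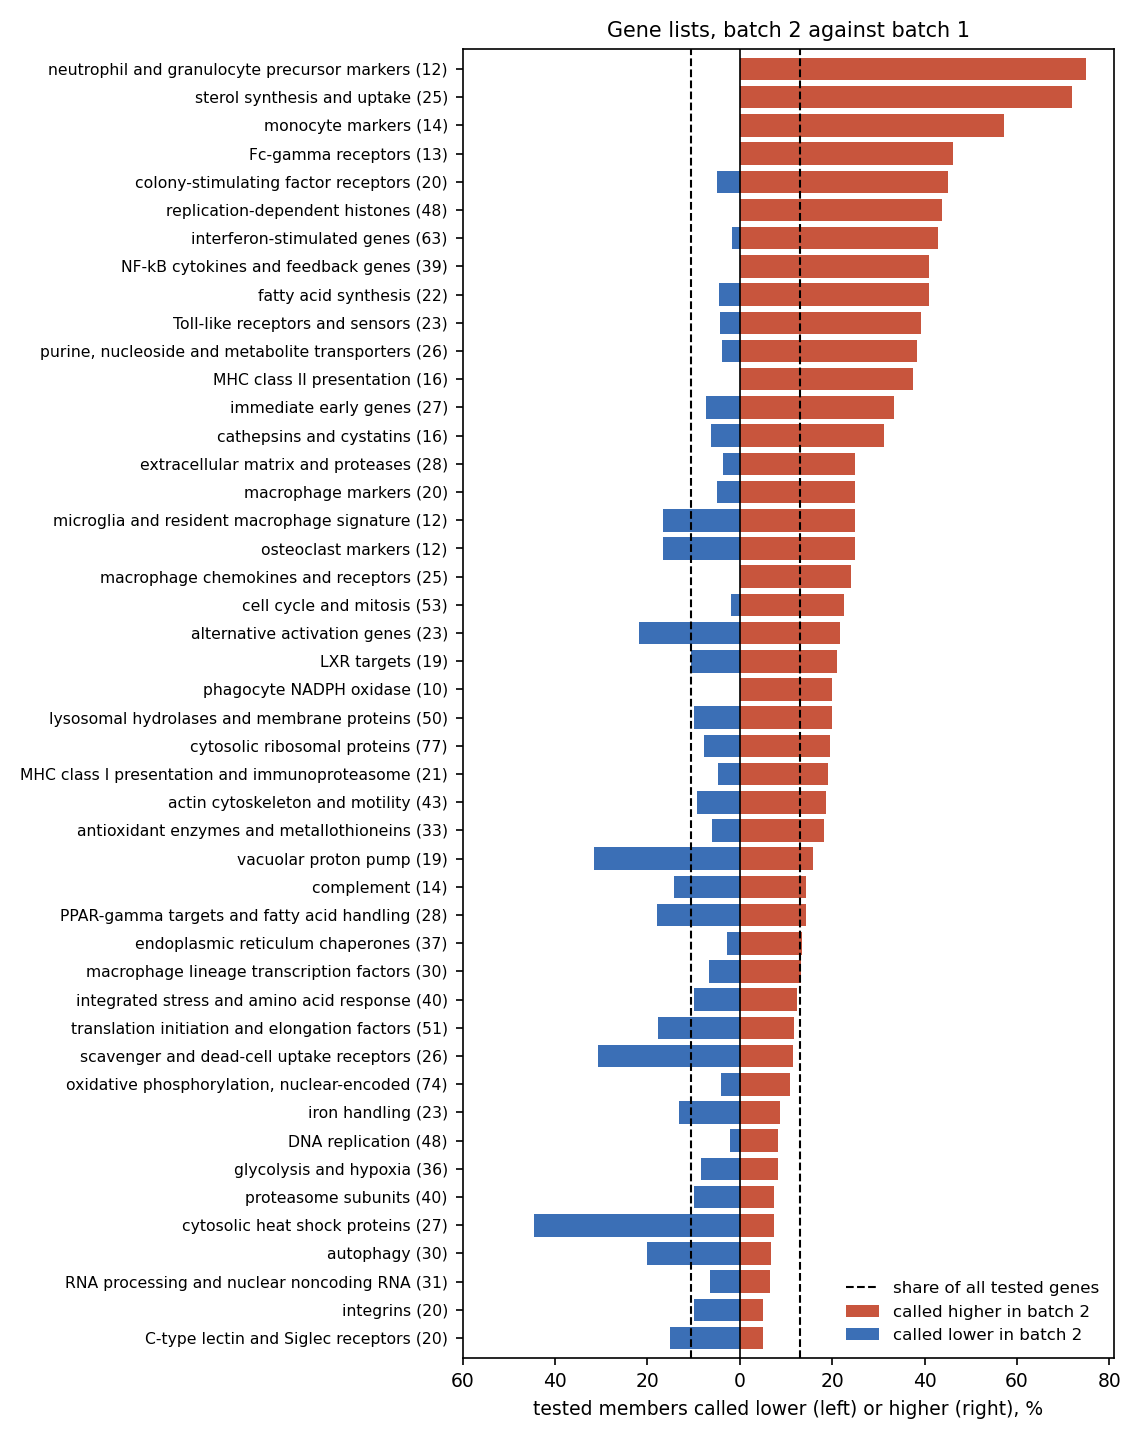
Share of the tested members of each gene list with at least 10 tested members (number in brackets) that were called higher (red, right) or lower (blue, left) in batch 2; dashed lines mark the shares among all 11071 tested genes, 13.1% higher and 10.5% lower. Neutrophil, sterol and monocyte genes have the longest bars to the right, and cytosolic heat shock proteins, the vacuolar proton pump and scavenger receptors the longest to the left.

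Ferroportin and several scavenger receptors were lower in batch 2. Ferroportin, Slc40a1 (chromosome 1, 45908070 to 45926532), the only known cellular iron exporter, was at 294, 249, 282 and 317 CPM in batch 1 and 22.2, 43.5, 53.9 and 45.2 CPM in batch 2, 8.82-fold lower (log2 -3.14, SE 0.19, adjusted p = 8.05e-05). Cd5l, a secreted scavenger protein of tissue macrophages, was at 1125, 1520, 1304 and 1464 CPM and 292, 488, 545 and 539.9 CPM (3.54-fold lower). Neither gene overlapped between the batches, and both were called without WT4 and without KO1. Among 26 scavenger and dead-cell uptake receptors, 8 were called lower and 3 higher, against 10.5% of all tested genes called lower. The fatty acid receptor Cd36 was at 1409, 1818, 1651 and 1477 CPM and 799, 1076, 722 and 979 CPM, transglutaminase Tgm2 at 292 to 359.9 and 154 to 213 CPM, and the mannose receptor Mrc1 at 532, 529, 500.5 and 508 and 296, 373, 235 and 399.7 CPM. The galactose lectin Mgl2 was 3.93-fold lower, at 5.36 to 7.96 against 1.15 to 2.60 CPM. Lrp1, the scavenger receptor with the highest CPM, was not called (log2 -0.21, SE 0.13, adjusted p = 0.267). The 3 scavenger list members called higher include Scarb1 (log2 1.08) and Cxcl16 (log2 0.47), described above. The largest log2 of a tested member of that list was 3.14. The sialic acid receptor Siglec1, of the lectin list, was 1.92-fold higher. Among 23 alternative activation genes, 5 were called higher and 5 lower. Without KO1, 1 scavenger receptor was called higher and 9 lower, and alternative activation genes numbered 2 higher and 3 lower without WT4. Without WT1, WT2 or WT3, 3, 2 and 2 alternative activation genes were called higher. The call of Mrc1 was lost without any of WT4, KO1 and WT2 (adjusted p = 0.0504 to 0.173). The calls of Cd36 and Siglec1 were lost without WT4 (adjusted p = 0.0735 and 0.0805).

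Of 23 iron handling genes, 2 were called higher and 3 lower, against 13.1% and 10.5% of all tested genes. Their median log2 was 0.12, with a range from -3.14 for Slc40a1 to 6.20 for Lcn2, both described above. The ferritin receptor Ncoa4, which delivers ferritin to lysosomes, was 1.39-fold lower, and the iron regulatory protein Ireb2 1.49-fold lower. Genes shared with osteoclasts were divided, with 3 of 12 called higher and 2 lower. The integrin chain Itgb3 was at 48.5, 40.9, 49.9 and 48.9 CPM in batch 1 and 11.7, 7.48, 13.9 and 9.92 CPM in batch 2 (4.37-fold lower), and the proton pump subunit Atp6v0d2 at 210.0, 190.5, 202 and 146 and 41.4, 94.3, 79.1 and 98.0 CPM (2.73-fold lower). Tartrate-resistant acid phosphatase, Acp5, was high only in WT4 among the 8 libraries, at 3.77, 4.89, 6.10 and 5.94 CPM and 75.2, 7.48, 9.02 and 7.09 CPM. Lipoprotein lipase Lpl was at 6720, 6504, 6552 and 5440 CPM and 2192, 5352, 3356 and 5039 CPM and was not called (log2 -0.92, SE 0.32, adjusted p = 0.0711). The stem cell factor receptor Kit, the only mast cell marker with enough counts, was 3.78-fold lower (6.68 to 12.4 against 1.48 to 3.24 CPM). Without WT4, 5 iron genes were called lower and 0 higher, and 0 osteoclast genes were called higher. Without KO1, 8 iron genes and 5 osteoclast genes were called higher. The call of Acp5 was lost without any of WT4, WT1, WT2, WT3 and KO3 (adjusted p = 0.0571 to 0.434).

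Cell cycle genes were higher in part. Of 53 tested, 12 were called higher and 1, the cyclin Ccnd2, lower, against 13.1% and 10.5% of all tested genes. Foxm1, a transcription factor of the G2 and M phases, was at 11.6, 9.89, 9.99 and 11.2 CPM in batch 1 and 25.3, 23.7, 38.0 and 31.0 CPM in batch 2 (2.56-fold higher), and E2f8 was 2.04-fold higher. The kinase Cdk2 was 1.43-fold higher and the cell cycle inhibitor Cdkn1a 1.68-fold higher. Cyclin D1, Ccnd1, which drives entry into the cycle, was at 538, 564, 568 and 459 CPM and 148, 469, 278 and 493 CPM and was not called (log2 -1.02, SE 0.46, adjusted p = 0.155). Of 48 replication-dependent histone genes, which are near-identical copies so that their counts are uncertain, 21 were called higher and 0 lower (median log2 0.81). Hist2h4 was at 16.9, 15.7, 16.0 and 13.5 and 39.6, 37.1, 50.8 and 63.8 CPM, Hist1h4d at 21.1 to 22.4 and 44.1 to 68.1 CPM, and the linker histone Hist1h1e at 55.1 to 70.1 and 121 to 179 CPM. The E2F motif TTTCGCGC or TTTGGCGC, searched on both strands, was held by 7 of the 44 histone genes with a promoter entry (15.9%). Of all tested genes with an entry, 173 of 8809 (1.96%) held it, and 0.813% of all single promoters did. Among the histone genes it was held by 4 of 19 called higher and 3 of 25 not called. DNA replication genes had 4 of 48 called higher and 1 lower, below both shares of all tested genes. The 1 called lower, the sliding clamp Pcna, was at 581, 563, 530.4 and 498 CPM and 255, 415, 370.2 and 452 CPM. The histones and the replication genes differed between the genotype subsets: without WT4, 29 histone and 14 replication genes were called higher, and without KO1, 8 and 2, with 8 replication genes lower. The histone median was 1.30 without WT4 and 0.40 without KO1. Replication genes called higher numbered 2 without WT2 or KO2 and 1 without WT3. Without KO1, 7 cell cycle genes were called higher, and without WT4, 8. The calls of Cdk2 and Pcna were lost without WT4 (adjusted p = 0.0520 and 0.196), and the call of Pcna was lost without WT2 (adjusted p = 0.0516).

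Chaperones of the cytosol were, among lists with at least 10 tested members, the list with the largest share called lower: 12 of 27, with 2 higher and a median log2 of -0.29. The HSP70 relative Hspa4 was at 314, 329, 319.7 and 329 CPM in batch 1 and 208, 203, 195 and 212 CPM in batch 2 (1.58-fold lower). Dnajb4, an HSP40 co-chaperone, was 2.30-fold lower, the HSP90 activator Ahsa1 1.80-fold lower, and the chaperonin subunit Cct2 1.32-fold lower. Without WT4, 5 chaperones were called lower. Other protein turnover and translation genes were divided. The vacuolar proton pump had 6 of 19 called lower and 3 higher, such as its catalytic subunit Atp6v1a (1027 to 1130 against 766 to 873 CPM). Autophagy had 6 of 30 lower and 2 higher, among them the amino acid sensing GTPase Rragd (1.95-fold lower) and the kinase Ulk2 (1.63-fold lower). The proteasome had 4 of 40 lower, such as Psmd6 (1.47-fold lower), and 3 higher. Of all tested genes 10.5% were called lower and 13.1% higher, so the proteasome calls lay near or below these shares. Translation factors had 9 of 51 lower, such as the helicase Eif4a2 (1.76-fold lower) and Eif2s1 (1.44-fold lower), and 6 higher, with 5 lower and 0 higher without WT4. Cytosolic ribosomal proteins had 15 of 77 higher, such as Rpl28 (1.76-fold higher) and Rps2 (1.44-fold higher), and 6 lower. Without WT4, 8 ribosomal protein genes were called higher. Those called lower numbered 1 without KO1 and 3 without WT2, WT3 or KO4. Without KO3, 8 proteasome genes were called lower, and without WT1, WT2, WT3 or WT4, 1 was called higher. The call of Atp6v1a was lost without WT4 (adjusted p = 0.108).

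Cytoskeletal, matrix and glycolytic genes were called in both directions, beside 13.1% of all tested genes called higher and 10.5% lower. Of 43 actin and motility genes, 8 were called higher and 4 lower. Profilin, Pfn1, which feeds actin monomers to growing filaments, was at 293, 309, 288 and 303 CPM in batch 1 and 661, 579, 585 and 566 CPM in batch 2. The actin-sequestering Tmsb10 was at 80.99, 73.7, 68.9 and 79.4 CPM and 267, 144, 222 and 132 CPM. The intermediate filament Vim was at 898, 961, 977 and 836 CPM and 2338, 1215, 2003 and 1128 CPM, with WT4 and KO3 high. Of 28 matrix and protease genes, 7 were called higher and 1 lower: the secreted glycoprotein Ecm1 was at 11.2 to 15.7 and 35.2 to 64.5 CPM (4.18-fold higher), the TGF-beta-induced adhesion protein Tgfbi at 113 to 174 and 278 to 483 CPM, and coagulation factor X, F10, at 1.98 to 3.61 and 6.48 to 14.7 CPM. Glycolysis and hypoxia had 3 of 36 higher, Gapdh (1.93-fold higher) among them, and 3 lower. Without WT4, 2 actin genes, 4 matrix genes and 0 glycolysis genes were called higher, and without KO1, 13, 13 and 12. Without WT3, 5 actin genes and 4 matrix genes were called higher. The calls of Tmsb10, Vim and Gapdh were lost without WT4 (adjusted p = 0.0633, 0.1501 and 0.0892).

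Most of the remaining lists held calls in both directions, beside 13.1% of all tested genes called higher and 10.5% lower. Complement genes were called higher in 2 and lower in 2 of 14, lineage transcription factors in 4 and 2 of 30, C-type lectins and Siglecs in 1 and 3 of 20, resident macrophage signature genes in 3 and 2 of 12, and integrins in 1 and 2 of 20. Lysosomal hydrolases and membrane proteins were called higher in 10 and lower in 5 of 50, cathepsins and cystatins in 5 and 1 of 16, subunits of the phagocyte oxidase in 2 and 0 of 10, and genes of fatty acid handling in 4 and 5 of 28. Nuclear-encoded oxidative phosphorylation genes were called higher in 8 and lower in 3 of 74, antioxidant genes in 6 and 2 of 33, endoplasmic reticulum chaperones in 5 and 1 of 37, stress response genes in 5 and 4 of 40, and RNA processing genes in 2 and 2 of 31. These counts depended on single cultures. Antioxidant genes had 0 higher and 7 lower without WT4 and 16 and 1 without KO1, and oxidative phosphorylation genes 2 and 3 without WT4 and 17 and 0 without KO1. Without WT4, those called higher fell to 1 for endoplasmic reticulum chaperones, stress response genes, cathepsins and lineage transcription factors, to 4 for lysosomal genes and to 0 for resident signature and oxidase genes, and those called lower to 2 for stress response and lysosomal genes and 3 for fatty acid handling. Without KO1, 10 chaperones, 10 stress response genes, 7 lineage factors and 5 oxidase genes were called higher, and 9 RNA processing genes, 10 genes of fatty acid handling, 5 lineage factors, 5 integrins and 4 resident signature genes were called lower. Without WT1, WT2 or WT3, chaperones called higher numbered 3, 1 and 1, and lysosomal genes called higher numbered 6 without WT2 or WT3. Without KO2, 5 RNA processing genes were called lower, without KO3, 7 lineage factors higher, and without WT3, 0 oxidase genes higher. Of the marker lists of other cells, 0 of 6 dendritic, 0 of 2 lymphocyte and 0 of 2 erythroid markers that could be tested were called, and 2 of 5 stromal and endothelial markers were called higher.

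Among genes outside the lists, the potassium channel Kcnj10 was at 1.81, 2.15, 1.61 and 1.19 CPM in batch 1 and 23.2, 26.5, 15.1 and 32.2 CPM in batch 2, with WT4 within the range of the KO libraries (log2 3.86, SE 0.31, adjusted p = 2.65e-04). The sodium pump regulator Fxyd2 was at 4.68, 7.63, 7.37 and 6.87 and 149.98, 24.8, 51.5 and 30.4 CPM, and the selenoprotein Sepw1 at 5.13 to 7.80 and 32.6 to 58.7 CPM. Lower in batch 2 were the lysosomal channel Mcoln3, at 27.4, 21.6, 32.4 and 24.95 and 2.80, 8.17, 9.88 and 10.1 CPM, and the BMP receptor Bmpr1a, at 17.96 to 26.6 and 3.05 to 8.88 CPM. Abundant genes that were lower included the sterol-binding protein Osbpl8 (2111 to 2315 against 1165 to 1389 CPM) and the splicing regulator Mbnl1 (1866 to 2099 against 1026 to 1516 CPM). The gene model Gm20594 (chromosome 6, 79818031 to 79818364) took 0.00428% to 0.112% of scaled counts in batch 1 and 1.18% to 1.57% in batch 2 (log2 5.26, SE 1.05, adjusted p = 0.0191). The spliceosomal RNA gene Rnu6 was at 267, 165, 103 and 112 CPM and 5.59, 1.25, 3.47 and 4.05 CPM, 36.3-fold lower, and such repeated genes share reads among copies. Of the called genes, 137 have provisional Gm or Rik symbols and are only counted here. The call of Gm20594 was lost without WT4 (adjusted p = 0.180), and the call of Gm20594 was lost without WT3 (adjusted p = 0.0558).

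Classes of gene differed as well. Of 58 tested small nucleolar RNA genes, 0 were called higher and 12 lower (median log2 -0.68), and their summed level was 490 to 885 CPM in batch 1 and 281 to 490.2 CPM in batch 2. Long noncoding RNA genes had 5 of 248 called higher and 17 lower (median log2 -0.34), against 1429 higher and 1111 lower of 10596 protein-coding genes (median log2 0.01). With genes split into 5 equal groups by their span on the genome, the median log2 fell from 0.07 in the shortest, with 15.9% called higher and 5.78% lower, to -0.07 in the longest, with 10.3% higher and 13.96% lower. These shares moved beside the share of reads in no gene given above, and the part of that share in them was not tested.

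Whether the batch difference varied with genotype was tested as an interaction, where WT4 is the only WT culture of batch 2 and KO1 the only KO culture of batch 1. It was called for 321 of 11433 genes (2281 at an unadjusted p under 0.05), and in 269 of the 321 the difference was larger in size in WT than in KO. Among the genes named here, 7 had a called interaction. Acp5 had the largest (log2 -3.52, SE 0.37, adjusted p = 0.00570, KO minus WT), followed by the lysosomal channel Mcoln3 (log2 1.86, SE 0.43, adjusted p = 0.0486) and Atp6v0d2 (log2 1.59, SE 0.20, adjusted p = 0.00727). For Ly6e and Slc40a1 the interaction was not called (adjusted p = 0.523 and 0.0551).

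Ribosome footprints of the same cultures gave a second readout of these samples. Their libraries held 325979 to 3714912 counts. Of the 1453 genes called higher in total RNA, 1280 entered the footprint fit, and 60.1% of them were higher there too. Of the 1160 called lower, 1004 entered and 56.9% were lower, against 53.6% with the same direction among genes not called. For the 258 genes that entered with a call of at least 2-fold, 217 (84.1%) had the same direction. Ltf, S100a9 and Fads2 had positive log2 values in footprints as well, of 9.17 (SE 1.41), 8.71 (SE 0.65) and 3.20 (SE 0.38), and Slc40a1, Cd5l and Itgb3 had values of -1.84 (SE 0.27), -1.49 (SE 0.15) and -2.12 (SE 0.30). Ly6e and Irf7, at log2 1.66 and 1.29 in total RNA, were at 0.08 (SE 0.14) and -0.31 (SE 0.19) in footprints, whereas the median of all 63 tested interferon-stimulated genes was 0.32 in footprints and 0.35 in total RNA. Medians of other lists, over their members in the footprint fit, varied. They were 5.91, 1.66, 1.52 and 0.41 for neutrophil, monocyte, sterol and fatty acid synthesis genes, against 5.11, 1.62, 1.16 and 0.39 in total RNA. For NF-kB, histone, MHC class II and cytokine receptor genes they were 0.21, 0.15, 0.24 and 0.06, against 0.77, 0.81, 0.77 and 0.40. For cytosolic chaperones and scavenger receptors they were 0.05 and -0.07, against -0.29 and -0.25. Gm20594 was at -2.16 (SE 0.75) in footprints. The difference between the readouts was not tested.

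**Figure D5:**
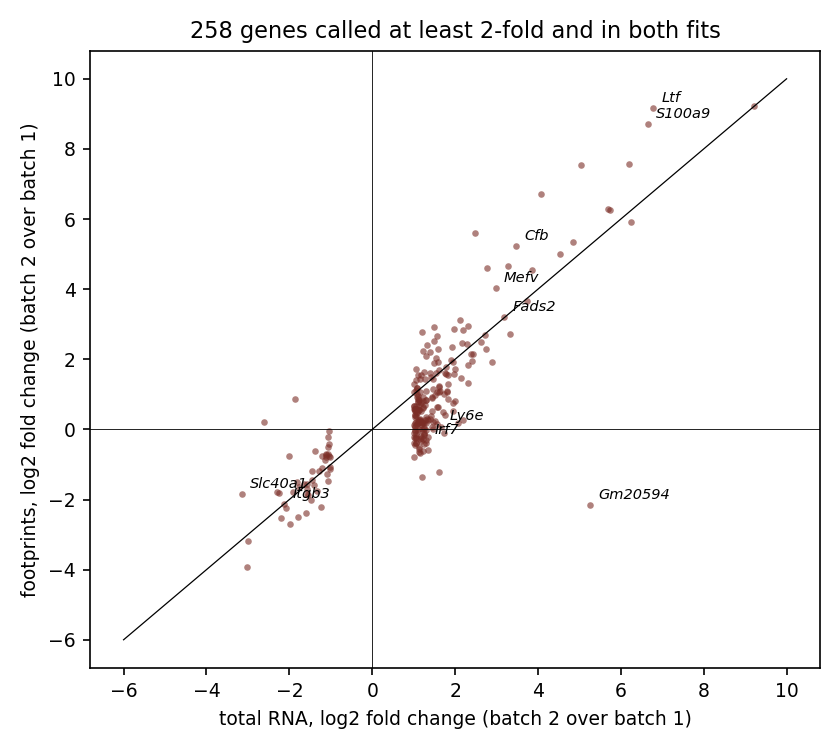
Log2 fold change of batch 2 over batch 1 in total RNA (x axis) and in footprints of the same cultures (y axis) for the 258 genes called at least 2-fold in total RNA and present in both fits, with the line of equal change. Most points, 217 of 258, lie in the quadrants of equal direction, and Gm20594 lies far below the line.

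The 4 total RNA libraries of batch 3 (WT5, WT6, KO5 and KO6), which entered no fit above, did not lie between the others in a regular way. Of the 314 genes at least 2-fold higher in batch 2, batch 3 averaged below both batches for 89, between them for 145 and above both for 80, and of the 149 lower genes, 54, 71 and 24. Among granule and monocyte genes, 3 were highest there, with S100a8 at 101 to 147 CPM, Ltf at 58.0 to 74.5 CPM and Ly6c2 at 21.5 to 30.3 CPM. The summed monocyte markers, by contrast, were at 547 to 649 CPM in batch 3, near their level in batch 1 and below every library of batch 2. Irf7, at 82.4 to 99.6 CPM, Csf1r, at 955 to 1276 CPM, and Cmklr1, at 0 to 0.149 CPM, lay below both other batches. Slc40a1 was between them at 66.0 to 103 CPM.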

How the data were processed

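Total RNA and ribosome footprints of 12 macrophage cultures were sequenced, and the 8 total RNA libraries of batches 1 and 2 were compared. The deposited values are raw counts of reads per gene symbol. Per the submitters' processing notes, the tools were HTSeq, Trim Galore, TopHat2 2.1.0, Bowtie 1.1.2, DESeq2, DESeq and Cufflinks 2.2.1, with build mm10; annotation, strand setting and the handling of multiple alignments are not given in the sources used here, so reads of overlapping, antisense and near-identical genes cannot be assigned with certainty. The authors' deposited table of the genotype comparison was not used. Of 23337 symbols, 20756 matched RefSeq (GRCm38.p6) by symbol, 2331 by a synonym and 250 were not placed; 1041 on X or Y were left out, and the summary lines for reads in no gene stayed out of library sizes.

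Batch was tested with genotype as covariate by edgeR 4.0.16 (R 4.3.3; robust quasi-likelihood test; genes kept by filterByExpr, minimum count 10; TMM scaling), which leaves 5 residual degrees of freedom, with Benjamini-Hochberg adjustment over all tested genes at 0.05. The scripts were checked on simulated counts. DESeq2 1.42.0 and limma 3.58.1 served as alternatives, with other scalings, filters, models and left-out cultures. Library measures were compared by exact two-sided permutation tests over 70 regroupings. Total counts per library, 5077478 to 12059361, set the counting precision.

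The genes named are the 15 with the largest difference in each direction among called genes with a mean of at least 10 CPM and no overlap, the 4 smallest p and the highest mean CPM of each list, and the 10 called genes with the highest mean CPM, 238 in all. The text describes a part of them, those its groups turn on, and Apobec1, Sqle, Hmgcs1, Isg15 and Oas3 outside the rule; the others are not reported here. The batches compared, the gene lists and this rule were chosen with earlier results of these data known.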

Additional observations from a re-analysis of the deposited data

Results flagged for a closer look

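Among the genes named, 250 groups of 4 libraries (1 gene in 1 batch) were examined for a library far from the other 3, and 21 were found. The chance rate of about 1 in 20 groups holds for 4 alike libraries, whereas each group here mixes the genotypes. KO1 stood apart in 11 of the 21, high in 6 and low in 5, and WT4 in 7, high in 3 and low in 4. These are the lone cultures of their genotype in their batch, so a genotype difference and a deviating library cannot be told apart here.

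In batch 1, KO1 was high for Csf3r (49.8 CPM), Birc3 (73.3 CPM), C3ar1 (1204 CPM), Mbnl1 (2099 CPM), Oas3 (353 CPM) and Apobec1 (1156 CPM). Apobec1 was at a like level in KO2, KO3 and KO4 (1176, 1009 and 1276 CPM). KO1 was low for Il3ra (19.1 CPM), Lpl (5440 CPM), Osbpl8 (2111 CPM), Rragd (37.9 CPM) and F10 (1.98 CPM). Lyz2 was low in WT1 (12758 CPM), Itgb3 low in WT2 (40.9 CPM) and Acly high in WT2 (190 CPM). In batch 2, WT4 was high for Cd177 (7.07 CPM), Srebf1 (107 CPM) and Acp5 (75.2 CPM), and low for Atf3 (277 CPM), Osbpl8 (1165 CPM), Mbnl1 (1026 CPM) and Ncoa4 (353 CPM).

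The batch difference differed between the genotypes, by the interaction test, for 7 of the genes named. The difference in KO minus that in WT, on the log2 scale, was -0.83 for Csf3r, -1.51 for Fcgr2b, 0.70 for Atf3, 1.59 for Atp6v0d2, -3.52 for Acp5, 1.86 for Mcoln3 and 0.86 for Pcna. In all 7 the difference was larger in size in WT, where WT4 is the only culture of batch 2.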

How the results depend on the processing

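Against 2613 genes called, limma voom called 818, glmTreat beyond 1.2-fold 1013 and an adjusted p of 0.01 986. WT4 against WT1 to WT3 alone gave 4376 and KO2 to KO4 against KO1 alone 247. Against 463 called at 2-fold or more, the values were 236 with voom, 295 with a mean of at least 5 CPM, 233 at an adjusted p of 0.01, 1047 in WT alone and 142 in KO alone. Leaving out each culture in turn gave 1250 to 3158 genes called, the lowest without WT4 and the highest without KO1, and 285 to 928 at 2-fold or more; the lone culture left in a group is assumed to vary like the others. The interaction called 862 genes with voom against 321. With DESeq2 2623 genes were called, and the other scalings gave 2559 to 2620.

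Replicate numbers are shared by WT2 and KO2 and by WT3 and KO3, in different batches, and the labels state no pairing. The correlation of their deviations was 0.04 and 0.05, against 0.15 and 0.03 across numbers. A fit with the replicate number in edgeR as a block called 0 genes, and 0 at 2-fold or more, with 1105 at an unadjusted p under 0.05; it leaves fewer residual degrees of freedom.

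The difference in counts per library, whose adjusted p was 0.0714, had an unadjusted exact permutation p of 0.0286 with all cultures and in 4 of 4 cases with a batch 1 culture left out, and of 0.0571 to 0.0857 without each batch 2 culture, at -4225450 to -3437900 counts, within a range of -4595400 to -3156760 over all 8 cultures. The share of the top genes had an unadjusted p under 0.05 with 50 genes (1.34 points) and without KO2 (1.5003 points; range over left-out cultures 0.328 to 1.5003), and the share of ambiguous reads turned from -0.0130 to 0.0207 points over all reads. Apobec1, not called, was called lower in WT alone (log2 -0.31, edgeR adjusted p = 0.0215), and turned to log2 0.63 with no genotype term and 0.00376 without WT4 (range over left-out cultures -0.31 to 0.00376). Of 116 called genes named, 75 kept their call and direction whichever culture was left out. The depth, 5077478 to 12059361 counts, limits genes of few counts, such as Ngp and Ltf. The causes were not tested.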
